A study of Homo sapiens with 8 samples.

Results

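Gasdermins, the proteins that form the membrane pores of pyroptosis, and the inflammasome genes that act upstream of them were followed through K562 cells given Lip-1. The 10 genes were chosen by name from the 19447 gene symbols of the count table, namely 3 gasdermins (GSDMB, GSDMD, GSDME), the sensors and their partner AIM2, NLRP1 and NEK7, the adaptor PYCARD, the inflammatory caspases CASP1 and CASP4, and the alarmin HMGB1. All 10 were in the table. Every library came from K562, an established line grown from a human chronic myeloid leukaemia with erythroid features, and the genotype is given as WT. The treated cells had Lip-1 for 24 h and are labelled Day 1, with 3 libraries at 10 µM (replicates 2 to 4) and 1 library at 20 µM (replicate 1). The 4 control libraries (replicates 1 to 4) had no Lip-1 and are labelled Day 0, so treatment and day cannot be told apart, and the labels name no vehicle. The labels give the compound by this short name, which elsewhere usually stands for liproxstatin-1, a molecule that blocks lipid peroxidation and ferroptosis. The series title names pyroptosis among the responses of these cells, which is the question that the comparison of these genes addresses.

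In pyroptosis a sensor of danger recruits the adaptor ASC, the product of PYCARD, which gathers and activates caspase-1. Caspase-1, or caspase-4 bound to bacterial lipopolysaccharide, cuts gasdermin D, whose freed amino-terminal part opens pores in the plasma membrane. Gasdermin E is cut during apoptosis instead, and gasdermin B by granzyme A from killer lymphocytes. The machinery is best known from macrophages and other myeloid cells. These data are RNA levels, and the cutting of a gasdermin leaves no trace in them.

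The shallowest library, 10 µM replicate 3, held 71151415 counts and the deepest, control 1, 141307169. The 20 µM library held 124240276, so raw counts there and in control 1 run high for a given level. Levels are in CPM, a gene's count divided by its library's total and multiplied by 1000000, and 0 counts in a library allow a level of up to 0.0212 to 0.0422 CPM (3 counts). All 8 K562 markers checked, among them GATA1 and HBG1, averaged 1 CPM or more in each group. Their sum was 4090 to 7390 CPM in the controls, 3310 to 4410 CPM at 10 µM and 2720 CPM at 20 µM, most of it HBG1 and HBG2. At 10 µM TAL1 averaged higher than in the controls (143 against 83.6 CPM). GATA1 was near its control level (207 against 212 CPM), and the rest averaged lower. In the 20 µM library each of these markers stood below its control mean, among them GATA1 (63.5 CPM), TAL1 (48.7 CPM) and KLF1 (29.3 against 169 CPM). A list of 8 monocyte and macrophage markers summed to 17.9 to 126 CPM in the controls, 20.1 to 108 CPM at 10 µM and 23.4 CPM at 20 µM, most of it LYZ. S100A8, S100A9 and MPEG1 were at 0 in the 20 µM library, S100A9 and MPEG1 also in all 4 controls, and S100A8 in 2 of these. In the controls, at 10 µM and at 20 µM, FCGR1A had mean levels of 0.0404, 0.254 and 0.644 CPM. ITGAM had 1.22, 0.699 and 2.45 CPM, and CSF1R 0.0869, 0.0827 and 0.137 CPM. CD14 averaged 0.149 CPM in the controls and 0.12 CPM at 10 µM, and stood at 1.41 CPM at 20 µM. The part of these markers in the results was not tested. In bulk RNA, fewer cells of a type and less RNA per cell cannot be told apart. The submitters named some libraries with letters (controls 1 and 4, the 20 µM library and 10 µM replicate 4) and the others with digits. Several of these genes followed that naming pattern. The labels do not say that replicates came from separate cultures, so p-values measure only the spread between these libraries.

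Per kilobase of exon, the 10 genes covered a wide range of levels in the untreated cells. HMGB1 stood at 91.3 ± 18.8 CPM per kilobase (SD, n = 4), NEK7 at 11.2 ± 2.3, NLRP1 at 2.8 ± 0.874, CASP4 at 1.31 ± 0.828 and GSDMB at 0.549 ± 0.157. CASP1 (0.137 ± 0.104), AIM2 (0.0443 ± 0.0582), GSDMD (0.0395 ± 0.0596), GSDME (0.0381 ± 0.0155) and PYCARD (0.0224 ± 0.0447 CPM per kilobase) were far lower, and the last 4 of these did not differ beyond their spread. The executors GSDMD and GSDME, the adaptor and the sensor AIM2 had the lowest mean levels of the 10 before treatment, and the spread of CASP1 overlapped theirs. In the 20 µM library the order was HMGB1 (25.2), NEK7 (20.2), NLRP1 (13.0), AIM2 (10.5), CASP4 (4.67), GSDMB (3.12), GSDME (1.57), CASP1 (0.527), GSDMD (0.379) and PYCARD (0.165 CPM per kilobase).

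**Figure D1:**
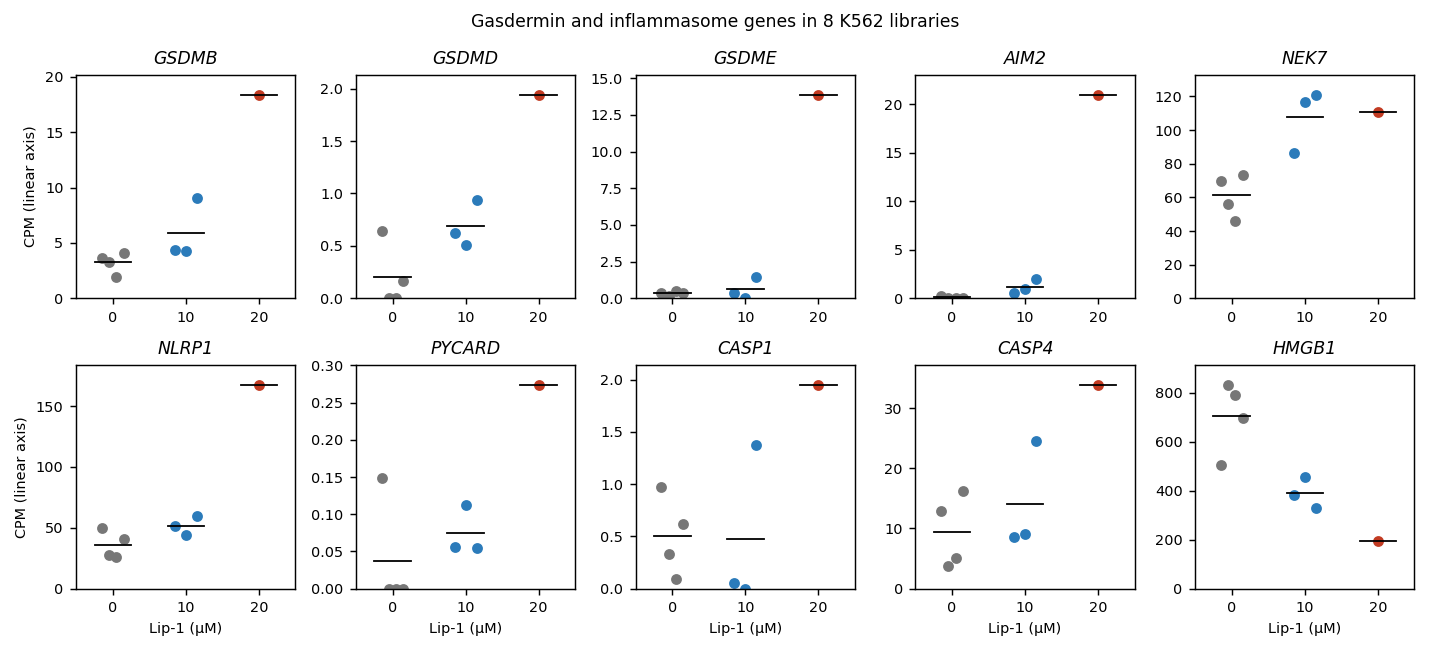
Levels of the 10 genes in CPM (linear vertical axes, each starting at 0) against Lip-1 dose in µM, with 1 point per library and a line at the group mean (4 libraries at 0, 3 at 10 and 1 at 20 µM). Every gene but NEK7 and HMGB1 had its highest value in the 20 µM library, and HMGB1 had its lowest there.

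In the comparison of all 4 Lip-1 libraries with the 4 controls, AIM2 and NEK7 rose and HMGB1 fell, and the other 6 genes that passed the count filter did not pass the test. Both groups carry the same replicate numbers, and in a fit blocked on them 5 of the 9 were called with Lip-1, NLRP1 and CASP4 in addition, and 7 at 10 µM, with GSDMB and GSDMD as well. That fit also called more of all 13101 tested genes, 2815 with Lip-1 against 1855 without the block. At 10 µM it called 4598 against 3002. The test was edgeR's quasi-likelihood test, two-sided, with Benjamini-Hochberg adjustment over 13101 genes at 0.05, and without that block unless the block is named. Of the 9 tested here 2 rose and 1 fell, where over all tested genes 14.2% were called, 7.47% higher and 6.69% lower, and 9 genes are too few to set against those shares. PYCARD did not pass the filter, which asks for 0.125 CPM in 4 libraries. AIM2 and GSDMD passed it through the Lip-1 libraries, since 1 control reached that level for AIM2 and 2 for GSDMD. The same 3 genes were called between 10 µM and control, where 22.9% of all genes were (11.4% higher and 11.5% lower). Between the single 20 µM library and 10 µM, 4 of the 9 were called, all higher at 20 µM (GSDMB, GSDME, AIM2 and NLRP1), where 30.7% of all genes were called, 14.1% higher and 16.6% lower. That contrast assumes that the lone library varies like the others, and it has no replicate check. Lip-1 and control libraries did not overlap in 4 of the 10 genes (GSDMB, AIM2 and NEK7 higher, HMGB1 lower), and did not overlap in 28.6% of all tested genes (18.1% higher, 10.5% lower). Between 10 µM and control the same 4 genes did not overlap, against 36.3% of all tested genes (24.3% higher, 12% lower). The single 20 µM library lay outside the range of the 10 µM libraries in 9 of the 10 genes, above it in 8 and below it for HMGB1, against 78.9% of all tested genes (38.5% higher, 40.4% lower).

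**Figure D2:**
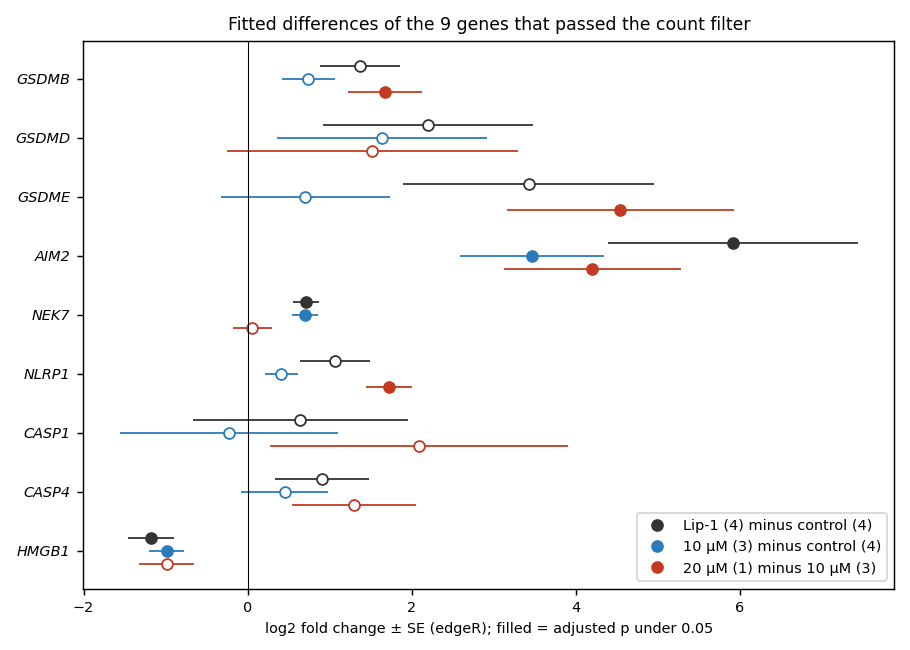
Log2 fold changes with SE (horizontal axis) of the 9 tested genes in 3 comparisons, Lip-1 minus control, 10 µM minus control and 20 µM minus 10 µM, with filled symbols for an edgeR adjusted p under 0.05. AIM2, NEK7 and HMGB1 are filled in both comparisons with control, and GSDMB, GSDME, AIM2 and NLRP1 between the doses.

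Of the sensors, AIM2 (ENSG00000163568.14, chromosome 1, 159062484 to 159147096, minus strand, GRCh38) detects double-stranded DNA in the cytosol and recruits ASC. It stood at 0.262, 0, 0.0506 and 0.0436 CPM in controls 1 to 4 (37, 0, 4 and 4 counts), at 0.553, 0.942 and 2.01 CPM in 10 µM replicates 2 to 4, and at 21 CPM (95% exact interval 20.2 to 21.8) in the 20 µM library. Each Lip-1 library lay above each control, and the 20 µM library lay far above the rest. AIM2 averaged 1.17 ± 0.754 CPM at 10 µM (n = 3), against 0.089 ± 0.117 CPM in the controls (SD, n = 4). With Lip-1 over control the log2 fold change was 5.91 (SE 1.52, edgeR adjusted p = 0.0374), and 3.46 (SE 0.876, adjusted p = 0.0241) for 10 µM over control. Fitted values at so few control counts depend on the prior count. In the fit blocked on replicate number 10 µM over control stood at 5.05 (edgeR adjusted p = 0.000476). Between 20 µM and 10 µM AIM2 differed by 4.20 (SE 1.08, edgeR adjusted p = 0.0191), and by 1.22 with the block (adjusted p = 0.416). The call of Lip-1 against control was lost without 10 µM replicates 3 or 4 (edgeR adjusted p = 0.0506 and 0.071) and without controls 1, 2, 3 or 4 (0.0583, 0.0951, 0.118 and 0.0966). Without the 20 µM library the fold change was 3.49 and the gene was still called, and without control 1 it was 7.41. The call at 10 µM was lost without 10 µM replicates 3 or 4 (edgeR adjusted p = 0.0615 and 0.0879) or controls 3 or 4 (0.0638 and 0.0597), and that between the doses without 10 µM replicates 2 or 3 (0.0674 and 0.0685).

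The promoter windows of AIM2 and GSDME are shown because these genes had the largest fitted differences between 20 µM and 10 µM. Each window runs from 250 bases before the RefSeq start to 50 bases after it, on the gene's strand, from RefSeq's GRCh38.p14 table, in which 5 of the 10 genes had an entry. Capitals mark a match on either strand to TGANTCA, the AP-1 pattern. The consensus of NF-kB was searched as well, and both patterns were picked after the windows had been searched with others.
AIM2, chr1:159076717-159077016, minus strand: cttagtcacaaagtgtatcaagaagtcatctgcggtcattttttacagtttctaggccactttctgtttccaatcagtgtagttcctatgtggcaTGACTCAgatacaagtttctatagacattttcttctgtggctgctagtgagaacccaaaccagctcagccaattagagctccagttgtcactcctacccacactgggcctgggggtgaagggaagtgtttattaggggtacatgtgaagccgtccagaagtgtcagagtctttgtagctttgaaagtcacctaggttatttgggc
GSDME, chr7:24757415-24757714, minus strand: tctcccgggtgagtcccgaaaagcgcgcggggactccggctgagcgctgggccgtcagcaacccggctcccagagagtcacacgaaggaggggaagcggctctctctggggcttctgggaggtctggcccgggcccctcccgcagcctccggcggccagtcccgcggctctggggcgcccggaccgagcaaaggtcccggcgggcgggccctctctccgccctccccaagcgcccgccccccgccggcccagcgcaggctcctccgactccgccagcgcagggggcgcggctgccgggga
In the AIM2 window the AP-1 pattern had 1 match, with its first base at position -155 from the start, and the NF-kB consensus had 0 matches. In the GSDME window both had 0 matches. Of 35116 such windows, 7.71% held the AP-1 pattern and 11.3% the NF-kB consensus. A match is a description of the letters, and binding was not measured.

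NLRP1 (chromosome 17, 5499427 to 5619424), a sensor that is held inactive by the peptidases DPP8 and DPP9, was called between the doses and not against control. It stood at 49.6, 28, 25.7 and 40.5 CPM in controls 1 to 4, at 51.6, 43.8 and 59.6 CPM in 10 µM replicates 2 to 4, and at 167 CPM at 20 µM. The letter-named controls were the higher ones, and control 1 lay above 10 µM replicate 3, so the groups overlapped. On the log2 scale NLRP1 stood at 1.06 for Lip-1 over control (SE 0.428, edgeR adjusted p = 0.118), 0.41 for 10 µM over control (SE 0.2, adjusted p = 0.176) and 1.72 for 20 µM over 10 µM (SE 0.28, adjusted p = 0.00296). With the replicate number as a block, NLRP1 rose against control, by 0.87 with Lip-1 (edgeR adjusted p = 0.041) and 0.59 at 10 µM (adjusted p = 0.00465), and it was higher in 4 of 4 same-numbered pairs, by 1.47 to 3.37 times. Without control 1 the call at 10 µM was also made (0.58, edgeR adjusted p = 0.041). Between the doses its call was kept under all 15 alternatives run (edgeR, DESeq2 or limma-voom adjusted p = 4.99e-07 to 0.0138).

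NEK7 (chromosome 1, 198156963 to 198322420), a kinase that binds the sensor NLRP3 and also acts in mitosis, rose to much the same level at both doses. It stood at 69.9, 55.9, 46.2 and 73.5 CPM in controls 1 to 4, at 86.2, 117 and 121 CPM at 10 µM and at 111 CPM at 20 µM. All Lip-1 libraries lay above all controls, and the letter-named controls 1 and 4 lay above the digit-named ones. NEK7 differed from control by 0.71 on the log2 scale over both doses (SE 0.158, edgeR adjusted p = 0.0265), and at 10 µM by 0.70 (SE 0.159, adjusted p = 0.0165). Between 20 µM and 10 µM it was 0.06 (95% interval -0.416 to 0.531, adjusted p = 0.876). The call of Lip-1 against control was lost without 10 µM replicates 3 or 4 (edgeR adjusted p = 0.06 and 0.0759) or controls 1, 2, 3 or 4 (0.0553, 0.0841, 0.0892 and 0.0541), and that at 10 µM without replicates 3 or 4 (0.0751 and 0.0677). Its partner NLRP3 was near 0, at 0.0283, 0, 0 and 0 CPM in the controls, 0, 0 and 0.0413 CPM at 10 µM and 0.306 CPM at 20 µM, and did not pass the filter.

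PYCARD (chromosome 16, 31201485 to 31203450), which encodes ASC, was at the edge of detection throughout. It had 21, 0, 0 and 0 counts in controls 1 to 4, 4, 8 and 4 counts in 10 µM replicates 2 to 4, and 34 counts in the 20 µM library (0.274 CPM). The groups overlapped through control 1, and Lip-1 was higher in 4 of 4 same-numbered pairs. An exact two-sided permutation test of log2(CPM + 0.5) between the 4 Lip-1 and 4 control libraries gave p = 0.2 without the pairing, where the smallest possible p is 0.0286. An antisense gene, PYCARD-AS1, overlaps PYCARD, and whether the counting used strand is not given in the sources used here, so the reads of both cannot be told apart.

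Of the inflammatory caspases, CASP4 (chromosome 11, 104942866 to 104969436), which binds intracellular lipopolysaccharide, was higher in each Lip-1 library than in the control of the same number. The 4 pairs, Lip-1 first, were 33.9 and 12.8 CPM (replicate 1, 20 µM), 8.5 and 3.71 CPM (replicate 2), 9.16 and 5.16 CPM (replicate 3), and 24.6 and 16.2 CPM (replicate 4). The letter-named libraries were the higher ones within both groups, and controls 1 and 4 lay above 10 µM replicates 2 and 3. CASP4 had a log2 fold change of Lip-1 over control of 0.91 without a block (SE 0.57, edgeR adjusted p = 0.29) and 0.89 with the replicate number as a block (SE 0.192, adjusted p = 0.0261). For 10 µM over control it was 0.45 (adjusted p = 0.584) and 0.73 with the block (adjusted p = 0.00791). In the digit-named libraries alone, 10 µM replicates 2 and 3 against controls 2 and 3, CASP4 was called too (0.83, edgeR adjusted p = 0.0407). In the letter-named libraries alone it was not called (0.88, edgeR adjusted p = 0.247), and neither was any other of these genes. The letter-named Lip-1 libraries were 1 at 20 µM and 1 at 10 µM, so their spread and the difference between doses cannot be told apart. The missing calls there do not show a different response, and why they are missing was not tested. CASP4 shares sequence with its neighbour CASP5, and the division of reads between them by the authors' counting is uncertain.

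CASP1 (chromosome 11, 105025443 to 105035250), the central inflammasome protease, was low and split by the naming pattern. The letter-named Lip-1 libraries had 1.95 CPM (20 µM) and 1.38 CPM (10 µM replicate 4), against 0.977 and 0.621 CPM in the letter-named controls 1 and 4. The digit-named 10 µM libraries had 0.0553 and 0 CPM (4 and 0 counts), against 0.332 and 0.0885 CPM in the digit-named controls 2 and 3. Lip-1 values were thus above the controls among letter-named libraries and below them among digit-named ones. The log2 fold change of Lip-1 over control was 0.64 (SE 1.31, edgeR adjusted p = 0.759), and the sign turned to -0.51 with the replicate block and to -0.26 without the 20 µM library, with no call either way. For 20 µM over 10 µM it was 2.09 (edgeR adjusted p = 0.416), and it was called without 10 µM replicate 4 (6.03, adjusted p = 0.0291). CARD16 and CARD17, copies of its recruitment domain, and 2 named pseudogenes share sequence with CASP1, so its counts are uncertain.

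**Figure D3:**
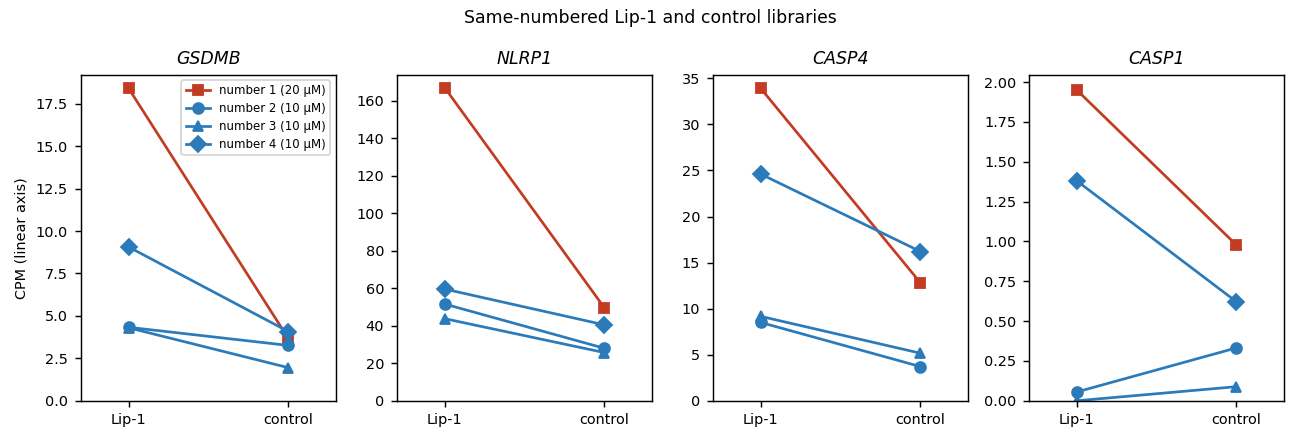
CPM (linear axes from 0) of GSDMB, NLRP1, CASP4 and CASP1 in each Lip-1 library and the control of the same replicate number, joined by a line, with replicate 1 at 20 µM and replicates 2 to 4 at 10 µM. Lip-1 was higher in 4 of 4 pairs for GSDMB, NLRP1 and CASP4 and in 2 of 4 for CASP1. These 4 genes were picked for the plot after their values were seen.

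Of the gasdermins, GSDMB (chromosome 17, 39904595 to 39919854) was the most abundant. It stood at 3.67, 3.26, 1.95 and 4.08 CPM in controls 1 to 4, at 4.33, 4.3 and 9.06 CPM in 10 µM replicates 2 to 4 and at 18.4 CPM at 20 µM. The lowest Lip-1 library lay just above the highest control, and within each group the letter-named libraries lay above the digit-named ones. The 20 µM library is letter-named, so dose and naming pattern cannot be told apart in it. For GSDMB the log2 fold change was 1.37 for Lip-1 over control (SE 0.484, edgeR adjusted p = 0.0858), 0.74 for 10 µM over control (SE 0.321, adjusted p = 0.131) and 1.67 for 20 µM over 10 µM (SE 0.45, adjusted p = 0.0227). With the replicate block the comparison at 10 µM was called (0.76, edgeR adjusted p = 0.03). The call between the doses was lost without 10 µM replicates 2 or 3 (edgeR adjusted p = 0.0659 and 0.0689).

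GSDMD (chromosome 8, 143553207 to 143563062), the main pore former of inflammasome signalling, had 91, 0, 0 and 15 counts in controls 1 to 4, 45, 36 and 68 counts in 10 µM replicates 2 to 4 and 241 counts at 20 µM. As levels, these were 0.644, 0, 0 and 0.163 CPM in the controls, 0.622, 0.506 and 0.936 CPM at 10 µM and 1.94 CPM at 20 µM. Control 1 lay above 10 µM replicates 2 and 3, so the groups overlapped, while Lip-1 was higher in 4 of 4 same-numbered pairs. The log2 fold change was 2.20 for Lip-1 over control (SE 1.28, edgeR adjusted p = 0.257) and 1.64 for 10 µM over control (SE 1.28, adjusted p = 0.395). Without control 1 these values were 4.04 and 3.47 (edgeR adjusted p = 0.105 and 0.0868). The 10 µM comparison passed with the replicate block (4.36, edgeR adjusted p = 0.019). GSDMD entered the test through the Lip-1 libraries, since 2 controls reached the filter's 0.125 CPM. Fitted values with controls at 0 depend on the prior count. In the digit-named libraries both controls were at 0. The 10 µM mean there, 0.564 CPM, was 15.1 times the mean limit of 0.0374 CPM (3 counts per library). The exact 95% intervals of 10 µM replicates 2 and 3 began at 0.454 and 0.354 CPM. The limit covers counting error only, and 1 count need not stand for 1 read, so the ratio is not a firm lower bound.

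GSDME (chromosome 7, 24698351 to 24758113), which links apoptosis to pore formation, was high in the 20 µM library. It had 48, 12, 37 and 36 counts in controls 1 to 4 (0.34, 0.148, 0.468 and 0.392 CPM), 26, 0 and 108 counts in 10 µM replicates 2 to 4 (0.36, 0 and 1.49 CPM) and 1723 counts at 20 µM (13.9 CPM, 95% exact interval 13.2 to 14.5). The 10 µM libraries lay on both sides of the controls, with replicate 3 at 0 and replicate 4 above all of them. Between 20 µM and 10 µM the log2 fold change was 4.54 (SE 1.38, edgeR adjusted p = 0.0358), and that of 10 µM over control 0.70 (SE 1.03, 95% interval -1.31 to 2.71, adjusted p = 0.668). Against control, Lip-1 did not pass (3.43, edgeR adjusted p = 0.149). The call between the doses was lost with the replicate block (5.18, edgeR adjusted p = 0.103), with DESeq2 (adjusted p = 0.065), and without 10 µM replicate 2 or control 4 (0.111 and 0.0554). Without 10 µM replicate 4 the value was 6.22 and without replicate 3 it was 3.95, both called (edgeR adjusted p = 0.0162 and 0.0173).

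HMGB1 (chromosome 13, 30456704 to 30617597), a chromatin protein that acts as a danger signal once it leaves a dying cell, was the most abundant of the 10 and fell. It stood at 505, 831, 789 and 696 CPM in controls 1 to 4, at 381, 456 and 329 CPM in 10 µM replicates 2 to 4 and at 195 CPM at 20 µM. All Lip-1 libraries lay below all controls, and each had 0.385 to 0.578 times the level of the control of its number. The log2 fold change was -1.18 for Lip-1 over control (SE 0.278, edgeR adjusted p = 0.0312), -0.99 for 10 µM over control (SE 0.212, adjusted p = 0.0132) and -0.99 for 20 µM over 10 µM (SE 0.333, adjusted p = 0.0522). The fall at 10 µM was called under each alternative run, with edgeR, DESeq2 or limma-voom adjusted p from 1.55e-05 to 0.0472. That over both doses was lost without 10 µM replicate 4 (edgeR adjusted p = 0.0801) and without controls 2, 3 or 4 (0.0898, 0.102 and 0.0717). The difference between the doses was called without 10 µM replicate 4 (edgeR adjusted p = 0.0313) or control 1 (0.0154), and by DESeq2 (adjusted p = 0.00644), and it shrank to -0.28 with the replicate block (edgeR adjusted p = 0.324). The letter-named libraries were the lower ones, both with Lip-1 (195 and 329 CPM, against 381 and 456 CPM in digit-named ones) and in the controls (505 and 696 CPM, against 831 and 789 CPM). The value of 195 CPM is that of the 20 µM library, in which dose and naming pattern cannot be told apart. HMGB1 has 48 named pseudogenes in GENCODE release 29, and how the authors' counting treated reads that match them is not given in the sources used here. The related HMGB2 stood at -0.29 for Lip-1 over control (edgeR adjusted p = 0.355) and HMGB3 at -0.42 (adjusted p = 0.306). Between 20 µM and 10 µM both were called lower, HMGB2 at -0.76 (edgeR adjusted p = 0.0367) and HMGB3 at -1.27 (adjusted p = 0.00297).

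Around these genes, 58 others of the pathway were listed, and 34 passed the count filter. With Lip-1 6 rose and 1 fell, 20.6% of those tested, against 14.2% of all genes, with a median log2 fold change of 0.58, against 0.08 over all genes. At 10 µM against control 7 rose and 1 fell, 23.5% against 22.9% of all genes, with medians of 0.41 and 0.05. Between the single 20 µM library and 10 µM 6 were called higher and 5 lower, 32.4% against 30.7% of all genes, with medians of 0.36 and -0.02. Without control 2, 3 or 4 none of the 36 then tested was called with Lip-1 (0 by edgeR, with 12, 11 and 14 at an unadjusted p under 0.05), and without control 1 or 10 µM replicate 4 there were 2. Among 14 other sensors, 2 of the 6 tested rose with Lip-1, IFI16, a DNA sensor of the same family as AIM2, and CARD8, a sensor held by DPP9 as NLRP1 is. IFI16 stood at 6.14, 3.24, 1.71 and 4.31 CPM in the controls, 12.2, 12.6 and 15.6 CPM at 10 µM and 185 CPM at 20 µM. Its log2 fold change was 1.69 for 10 µM over control (edgeR adjusted p = 0.00847) and 3.80 for 20 µM over 10 µM (adjusted p = 0.000729). CARD8 averaged 37.4 ± 2.74 CPM at 10 µM (n = 3), against 23.2 ± 2.66 CPM in the controls (SD, n = 4), a log2 fold change of 0.57 (edgeR adjusted p = 0.00768).

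Of the 5 cytokine genes, 2 were tested and IL1A, whose product is an alarmin of dying cells, rose. It passed the count filter through the Lip-1 libraries, since no control reached 0.125 CPM. It had 8, 0, 0 and 0 counts in controls 1 to 4, 29, 199 and 94 counts in 10 µM replicates 2 to 4 and 834 counts at 20 µM. As levels, these were 0.0566 CPM in control 1, 0.401, 2.8 and 1.29 CPM at 10 µM and 6.71 CPM at 20 µM. The log2 fold change of 10 µM over control was 6.20 (SE 1.13, edgeR adjusted p = 0.00749), a fitted value that depends on the prior count. The cytokines that caspase-1 matures did not pass. IL1B had 40, 5, 0 and 4 counts in the controls, 12, 0 and 0 at 10 µM and 65 at 20 µM, and did not pass the filter. Its levels were 0.283, 0.0616, 0 and 0.0436 CPM in the controls, 0.166, 0 and 0 CPM at 10 µM and 0.523 CPM at 20 µM. IL18 averaged 0.792 ± 0.143 CPM at 10 µM (n = 3), against 0.474 ± 0.108 CPM in the controls (SD, n = 4), with a log2 fold change of 0.62 (95% interval -0.268 to 1.5, edgeR adjusted p = 0.362).

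Of the 8 other caspases and their regulators, 5 were tested and CASP8, the initiator caspase of death receptors, rose, with a log2 fold change of 0.95 for Lip-1 over control (SE 0.223, edgeR adjusted p = 0.0312). Of 22 regulators, 16 were tested, and 2 rose with Lip-1, the NLRP1 inhibitor DPP8 (0.51, edgeR adjusted p = 0.0441) and SQSTM1, an autophagy receptor (2.88, adjusted p = 0.022). The other peptidase that holds NLRP1, DPP9, went the other way without passing. It stood at -0.25 with Lip-1 (edgeR adjusted p = 0.168) and -0.30 at 10 µM (adjusted p = 0.0552), and is named after its values were seen. MAVS, the mitochondrial adaptor of RNA sensing, rose at 10 µM (0.29, edgeR adjusted p = 0.0429). Of 6 further HMGB proteins and alarmins, 4 were tested and HSPD1, the mitochondrial chaperonin, fell (-1.02 for Lip-1 over control, adjusted p = 0.0285). NINJ1, which ruptures the plasma membrane after gasdermin pores form, stood at 9.72, 4.06, 5.06 and 7.54 CPM in the controls, 11.1, 10.2 and 14 CPM at 10 µM and 76.1 CPM at 20 µM. It was called between 20 µM and 10 µM (2.71, edgeR adjusted p = 0.00131) and not between 10 µM and control (0.72, adjusted p = 0.0799), and is named after its values were seen. Of the 3 other gasdermin genes, PJVK was tested and did not pass.

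**Figure D4:**
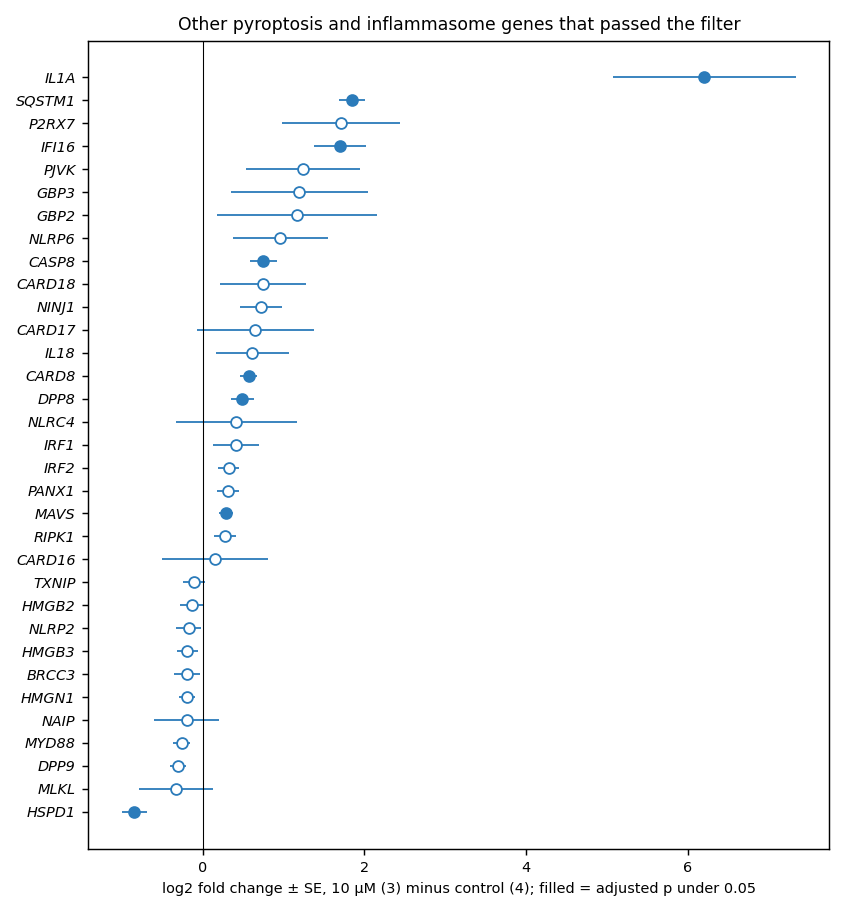
Log2 fold change with SE (horizontal axis) of 10 µM over control for other genes of the pathway that passed the filter, 1 of the 34 left out, sorted by value, with filled symbols for an edgeR adjusted p under 0.05. IL1A, SQSTM1, IFI16, CASP8, CARD8, DPP8 and MAVS are filled on the right and HSPD1 on the left.

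The genes whose profiles lay nearest to those of these genes were found by the mean absolute difference, over 8 libraries, of log2 CPM centred on the control mean. Among the nearest to AIM2 were RRAD (0.501) and IFIT1 (0.701), nearest to GSDME were HNF4A (0.787), CELF4 (0.829) and HTRA3 (0.897), and nearest to HMGB1 were GEMIN5 (0.107), NCL (0.112) and WDR3 (0.128). By this measure HMGB1 had nearer neighbours than GSDME. Counting error widens such distances for a gene with few counts, as GSDME with 0 in 10 µM replicate 3, and its part was not tested. These distances are descriptions over 8 libraries in which genes share the same groups and depths.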

How the data were processed

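RNA from 8 K562 libraries was measured by sequencing. The authors deposited whole-number counts per gene and library, as the values show, and the build was hg38. Per the submitters' processing notes the tools included limma, DESeq2, StringTie, HISAT2 and bcl2fastq 2.0, and which of them made the counts is not given in the sources used here. Per the labels' protocols, ribosomal RNA was removed with probes and cDNA was made with random primers. In the deposited counts 2958 entries are 4 and 401 are 1, so 1 count need not stand for 1 read, and intervals and limits cover counting error only. The table's 9 lines with no gene name were dropped.

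Genes were filtered with filterByExpr on Lip-1 against control, scaled by TMM (factors 0.903 to 1.085) and tested with edgeR 4.0.16 in R 4.3.3, with 2 levels (Lip-1, control) or 3 (20 µM, 10 µM, control). CPM used library totals without the TMM factor. SE is the fold change over the square root of F, and 95% intervals of fold changes are normal. Intervals of single libraries are exact (Clopper-Pearson). DESeq2 1.42.0 and limma 3.58.1 (voom) served as alternatives, with other scalings, filters, a replicate block, the naming pattern and each library left out. Same-numbered Lip-1 and control libraries deviated together (correlations across genes of 0.251 to 0.453 in 4 of 4 pairs). Deviations were taken from the mean of all Lip-1 libraries or of all controls. Those of the 20 µM library thus include the difference between doses, and the 10 µM libraries carry the opposite part. Pairing and dose cannot be told apart in the 0.453 of replicate 1. The numbers were therefore taken to pair the libraries. Differently numbered ones gave -0.483 to 0.31, the highest between the digit-named 10 µM replicate 3 and control 2. Each Lip-1 library correlated best with the control of its number, but 10 µM replicate 2 reached 0.242 with control 3. Among digit-named libraries the pairing thus stood little apart from the naming pattern. Exon lengths and coordinates came from GENCODE release 29 (19029 of 19447 symbols matched).

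The members and lists were chosen with earlier results of these data known. All 10 members are named, with the other pathway genes past the threshold against control, IL1B, IL18, CASP8, NLRP3, and the 3 nearest profiles (log2 CPM, prior count 2) to AIM2, GSDME and HMGB1, apart from a few genes that are not reported here.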

Additional observations from a re-analysis of the deposited data

Results flagged for a closer look

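PYCARD in control 1 stood apart from the other controls, at 0.149 CPM (21 counts), where controls 2, 3 and 4 had 0 counts, which allows up to 0.0369, 0.0379 and 0.0327 CPM. With the other 3 controls at 0, any count in 1 library gives this, so the usual chance of about 1 in 20 groups does not apply. Control 1 was the deepest library. Control 1 was also the highest control for AIM2, GSDMD, NLRP1 and CASP1 and the lowest for HMGB1, by a smaller share of the range (0.807, 0.746, 0.38, 0.401 and 0.585, against a critical value of 0.829).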

How the results depend on the processing

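Of the members, 3 were called between Lip-1 and control (edgeR), 5 with the replicate block, 5 with the naming pattern as a covariate, 6 in the digit-named libraries alone and 0 in the letter-named ones, where 6 had an unadjusted p under 0.05 and no other tool was run. The letter-named Lip-1 libraries hold both doses, so dose and spread cannot be told apart there, and the digit-named ones hold 10 µM only. Leaving out 1 library gave 0 to 3, with 0 calls without 10 µM replicate 4 or controls 2, 3 or 4 (5, 4, 3 and 4 at an unadjusted p under 0.05). Between 10 µM and control 3 were called, 7 with the block, 6 with the naming pattern and 1 to 4 with 1 library left out. Between 20 µM and 10 µM 4 were called, 2 with the filter of 1 CPM, which removes AIM2 and GSDME, 2 with the block and 1 to 6 with 1 library left out. Of the other pathway genes 7 were called with Lip-1, 12 with the naming pattern, 0 in the letter-named libraries alone (11 at an unadjusted p under 0.05) and 0 to 8 with 1 library left out. Over all genes the count with Lip-1 was 1855, 3395 by DESeq2, 2815 with the block, 3348 with the naming pattern, 3137 in the digit-named libraries, 0 in the letter-named ones (2694 at an unadjusted p under 0.05) and 64 to 3021 with 1 library left out. At 10 µM it was 3002, with 4598 under the block, 4826 with the naming pattern and 1437 (without 10 µM replicate 3) to 3021 with 1 library left out. The median log2 fold change with Lip-1 was 0.08, and 0.14 under upper-quartile scaling.

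The sign turned for CASP1, GSDME, CASP4, GSDMD and NEK7, each in a comparison in which the unblocked edgeR fit did not call it. CASP1 with Lip-1 over control stood at 0.64, and at -0.98 by limma-voom, -0.51 with the replicate block, -0.59 with the naming pattern and -0.26 to 1.16 with 1 library left out. At 10 µM over control it ran from -4.20 to 0.32 with 1 library left out. GSDME stood at -0.93 in the digit-named libraries and, at 10 µM over control, at -1.08 by limma-voom and -0.996 to 1.27 with 1 library left out. CASP4 at 10 µM ran from -0.18 to 0.83 with 1 library left out. Between 20 µM and 10 µM, GSDMD stood at -2.82 with the block and -0.97 with the naming pattern, and NEK7 at -0.13, -0.14 and, with 1 library left out, -0.0783 to 0.12. By limma-voom AIM2 lost its call with Lip-1 (adjusted p = 0.176), and DESeq2 gave it no adjusted p there, while DESeq2 called GSDMB and GSDME (adjusted p = 0.0263 and 0.0376). The cause of these changes was not tested. Depth limits PYCARD, CASP1, GSDMD, GSDME and AIM2, each with 0 counts in at least 1 library.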

Other observations

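Among genes of the pathway too low to be tested, CASP5, a lipopolysaccharide-binding caspase next to CASP4, had 4, 0, 2 and 0 counts in controls 1 to 4, 12, 0 and 8 counts in 10 µM replicates 2 to 4, and 233 counts in the 20 µM library (1.88 CPM). It shares sequence with CASP4 and was picked after its values were seen. P2RX7, the ATP-gated channel that can trigger the NLRP3 inflammasome, averaged 1.31 CPM at 10 µM (n = 3), against 0.362 CPM in the controls (n = 4), with a log2 fold change of 1.71 (edgeR adjusted p = 0.125). It stood at 19.6 CPM at 20 µM (3.94 over 10 µM, edgeR adjusted p = 0.0161). P2RX7 too was picked after its values were seen.

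Whether the response to Lip-1 differed between letter-named and digit-named libraries was tested in edgeR, after the values were seen. Of 13101 genes 0 were called. CASP1 had the response in letter-named libraries 3.97 above that in digit-named ones on the log2 scale (edgeR adjusted p = 0.877, unadjusted p = 0.0319), GSDME 5.27 (adjusted p = 0.877, unadjusted p = 0.0387) and CASP4 0.09 (adjusted p = 0.978). For GSDMD the difference was -6.91 (edgeR adjusted p = 0.877, unadjusted p = 0.0107), a fitted value that depends on the prior count, since both digit-named controls were at 0. The 20 µM library is letter-named, so dose and naming pattern cannot be told apart in part of this difference.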
